A study of Mus musculus with 5 samples.

Results

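The collagen gene family was followed in stromal cells of the mouse oviduct (fallopian tube) with and without floxed Esr1, the gene of estrogen receptor alpha. Its members are all genes in the expression table whose symbol is Col, a number, a and a number, which gave 44 of the 23857 listed genes. The comparison asks how collagen expression differs in oviductal stroma when the estrogen receptor gene is deleted there. Cells positive for a yellow fluorescent protein were sorted from young adult female mice, 1 mouse per library, and their RNA was sequenced in bulk. The 2 controls, mice 2 and 3, were Pdgfra-Cre;R26Y and labelled wild-type. The other group, mice 1, 2 and 3, was Pdgfra-Cre;Esr1(fl/fl);R26Y, described as experimental in the labels and called labelled knockout here. All 5 mice thus carried the Cre recombinase driven by Pdgfra, a gene of mesenchymal cells, and the Rosa26-YFP reporter R26Y that marks cells in which Cre has acted. Deletion is limited to cells that have expressed the driver, and other cells of the oviduct keep Esr1.

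Collagens are secreted or membrane-bound proteins in which 3 chains wind into a helix rich in glycine and proline. Fibrillar collagens assemble into the banded fibrils that give tissue its tensile strength. Type IV collagens form the sheet of the basement membrane, and FACIT collagens (fibril-associated collagens with interrupted helices) sit on fibril surfaces. Type VI collagen forms beaded microfilaments around cells, and transmembrane collagens are anchored in the cell membrane. In the oviduct wall, stromal fibroblasts are the main makers of interstitial collagen, and chains of type IV are also made by epithelial, endothelial and muscle cells. Estrogen is known to act on matrix turnover in the female reproductive tract.

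Promoter sequence is shown first for the genes on which the comparison turned, so that their levels can be read beside it. RefSeq promoter windows on GRCm38.p6, the build called mm10 in the submitters' processing notes, were found for 35 of the 44 members, in 38 windows that run from 250 bases before to 50 after a start site. The first 5 sequences are the 120 bases before the start site on the gene's own strand, of Col5a3 and Col6a3 (fibrillar and beaded chains that were low in the libraries labelled knockout), Col6a5 (a beaded chain that was high there), Col3a1 (an abundant fibrillar chain) and Col4a6 (a chain of a paired type IV locus). The sixth is the whole stretch of 71 bases between the starts of Col4a4 and Col4a3, which are transcribed away from each other, on the Col4a4 strand. None of the bases shown lies in an annotated GENCODE M21 exon. Capitals mark the GC box GGGCGG, read on either strand, and in Col3a1 alone the letters TATAAA, near the end of the stretch farthest from the start site.
Col5a3 (chr9:20815068-20815187, minus strand): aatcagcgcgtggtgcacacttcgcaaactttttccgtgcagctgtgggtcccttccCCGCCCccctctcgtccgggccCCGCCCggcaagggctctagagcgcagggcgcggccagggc
Col6a3 (chr1:90843972-90844091, minus strand): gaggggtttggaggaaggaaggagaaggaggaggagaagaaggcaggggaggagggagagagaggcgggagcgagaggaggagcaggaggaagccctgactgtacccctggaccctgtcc
Col6a5 (chr9:105960644-105960763, minus strand): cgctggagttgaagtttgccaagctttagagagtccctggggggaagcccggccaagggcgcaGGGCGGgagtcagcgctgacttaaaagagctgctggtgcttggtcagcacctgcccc
Col3a1 (chr1:45311418-45311537, plus strand): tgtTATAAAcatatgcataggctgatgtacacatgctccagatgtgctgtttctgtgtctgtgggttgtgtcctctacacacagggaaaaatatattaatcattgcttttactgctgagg
Col4a6 (chrX:141474077-141474196, minus strand): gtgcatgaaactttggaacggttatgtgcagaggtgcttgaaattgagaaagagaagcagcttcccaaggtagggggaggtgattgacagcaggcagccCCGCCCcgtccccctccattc
Col4a4 to Col4a3 (chr1:82586850-82586920, minus strand): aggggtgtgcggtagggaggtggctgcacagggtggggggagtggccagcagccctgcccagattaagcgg

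The estrogen response element, GGTCA followed by any 3 bases and TGACC, searched on both strands of the full 300-base windows, was in 0 of the 38 collagen windows and in 0.07% of all 32851 windows. The shorter form that ends in TGA, which every full element contains, was in 3 collagen windows (7.89%), those of Col9a1, Col19a1 and Col4a4, and in 0.928% of all windows. GGGCGG was in 23 of the 38 windows (60.5%) against 35.7% of all windows. The letters TATAAA of the TATA box, at any place in the window, were in 5 (13.2%) against 13.6%. The pentamer CCAAT, the binding sequence of the factor NF-Y, was in 13 (34.2%) against 37.4%. These matches describe the letters of the windows and say nothing of binding.

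Values are TPM, a level corrected for transcript length that sums to the same total in every library, and the number of reads behind it is not known. Between 15841 and 19432 genes reached 1 TPM in a library. Esr1 itself was at 83.3 and 77.6 TPM in control mice 2 and 3, and at 28.9, 85.0 and 169.9 TPM in mice 1, 2 and 3 labelled knockout. Of those, mouse 1 alone had less Esr1 than the controls, so the Esr1 level does not bear out the labels of mice 2 and 3. A total per gene in bulk RNA cannot show whether the floxed gene was deleted in the sorted cells, and deletion was not tested. Every direction below therefore refers to the libraries by label. The stromal markers Dcn, Vim and Pdgfra were present in every library, and the 7 stromal markers, mostly Dcn, summed to 12303 to 14321 TPM in controls and 8997 to 11494 TPM in the libraries labelled knockout. Of the 7, only Lum, a small proteoglycan of collagen fibrils, lay below both controls in all 3 (2383 and 1740 TPM against 426, 448 and 671 TPM, limma adjusted p 0.0978), and Pdgfra, Vim and Thy1 had positive log2 fold changes of 0.13, 0.09 and 0.52. The 10 epithelial markers summed to 3065 and 3334 TPM in controls and to 2163, 12066 and 13169 TPM in mice 1, 2 and 3 labelled knockout, most of it the secreted oviductal glycoprotein Ovgp1. Of 8 immune markers, 7 were lower in each library labelled knockout than in either control (summed TPM 729 to 1634, against 2167 to 2797), as did 4 of 5 mesothelial markers (329 to 468 against 551 to 649), where 21.9% of all tested genes were. The fifth, Wt1, lay above both controls (141 and 146 TPM against 175, 218 and 223 TPM), as 11.9% of all tested genes did. Endothelial markers summed to 149 to 241 TPM, smooth muscle markers to 366 to 551 TPM and pericyte markers to 75.4 to 105 TPM over all libraries. The 4 Schwann cell markers summed to 11.4 to 12.5 TPM in the controls and mouse 1 and to 40.8 and 83.2 TPM in mice 2 and 3 labelled knockout, mostly S100b. No marker of these lists was at 0 in any library. The part of these other cells in the collagen values below was not tested, and in bulk RNA fewer cells of a type and less RNA per cell cannot be told apart.

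Collagen transcripts made up a smaller share of the RNA in the libraries labelled knockout. Summed, the 44 genes made up 1.65% (mouse 2) and 1.16% (mouse 3) of total TPM in the controls. In mice 1, 2 and 3 labelled knockout the share was 1.07%, 0.753% and 0.875%. The 3 libraries labelled knockout lay below both controls, with mouse 1 close to control mouse 3, and without Col1a1, the most abundant member, the groups overlapped. Fibrillar chains made up 61.9% and 64.0% of the collagen total in controls and 49.2%, 55.7% and 64.9% in mice 1, 2 and 3 labelled knockout. Every member was detected in every library. The levels ran from a mean of 2310 TPM for Col1a1 over the 5 libraries to under 1 TPM for Col19a1 and Col10a1.

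**Figure D1:**
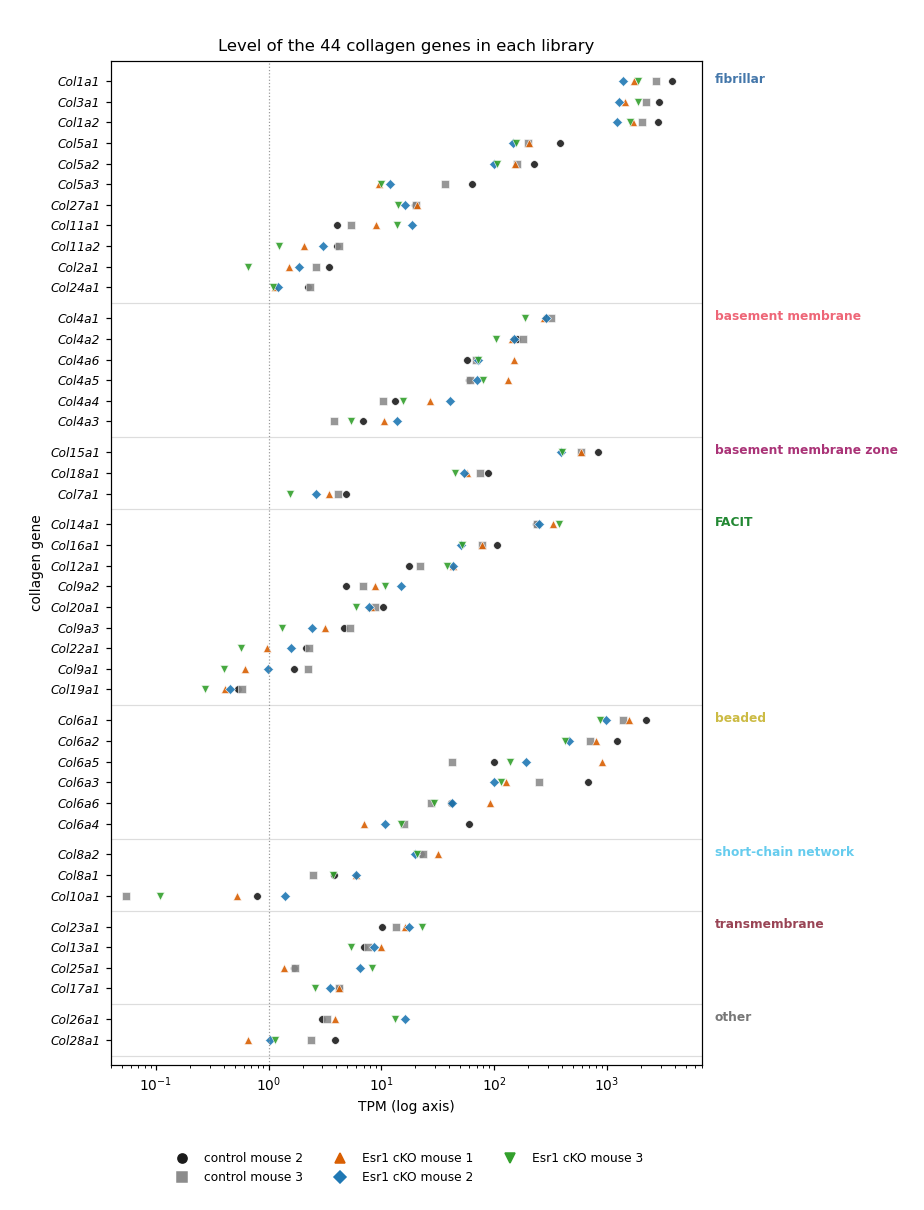
Each point is the TPM (log axis) of a collagen gene in 1 library, with genes grouped by class and ordered by mean level, and the dotted line marks 1 TPM (Esr1 cKO names the libraries labelled knockout). The controls (circles and squares) lie to the right of the other libraries for Col1a1, Col3a1, Col5a3 and Col6a3 and to the left for Col11a1, Col12a1 and Col6a5.

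The direction differed by class. Of 11 fibrillar genes, 8 had all 3 libraries labelled knockout below both controls and 1 had them above, whereas of 6 type IV genes 2 lay below and 3 above. The other classes had 2 below and 0 above of 3 (basement membrane zone), 5 and 3 of 9 (FACIT), 2 and 1 of 6 (beaded) and 0 and 1 of 4 (transmembrane). Short-chain network collagens had 0 and 0 of 3, and the genes outside these classes, Col26a1 and Col28a1, had 1 and 1 of 2. Over the whole family this gave 20 genes below both controls, 10 above and 14 with overlap. Among the 42 members tested the counts were 19 and 10, or 45.2% and 23.8%. Among all 19292 tested genes, 21.9% lay below both controls and 11.9% above.

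The level of a gene bore on these counts. Among genes with a mean of at least 5 TPM, 11 of 31 collagens (35.5%) lay below both controls, against 12.9% of all such genes, and 10 (32.3%) lay above, against 16.7%. Among tested genes under 5 TPM, 8 of 11 collagens lay below both controls, where 38.9% of all such genes did, and 0 lay above, against 2.92%. At a mean of at least 100 TPM, 7 of 13 collagens lay below both controls against 12.4% of such genes, and 2 above against 17.9%. The lower values of weakly expressed collagens thus sat in a range where lower values were common throughout the table.

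No collagen passed an adjusted p of 0.05 in limma, fitted over all tested genes, in either direction. Over all genes 3 passed lower (0.0156%) and 2 higher (0.0104%). At an unadjusted p under 0.05 in limma, 17 of the 42 tested collagens were lower and 7 higher, where 9.87% and 3.7% of all tested genes were. The median log2 fold change of the 42 was -0.49, against -0.02 for all tested genes. It was -0.31 for the 31 collagens with a mean of at least 5 TPM and -0.68 for the 13 with a mean of at least 100 TPM, where the medians of all such genes were 0.10 and 0.14. The counts at that unadjusted p moved with single libraries, to 2 lower and 4 higher of 41 without control mouse 2, where 4.01% and 1.6% of all genes passed, and to 13 and 4 of 41 without control mouse 3, against 3.63% and 2.18%. Of 42 they were 10 and 5 without mouse 2 labelled knockout, against 11% and 1.82%, and 8 and 7 without mouse 3, against 7.34% and 2.83%. Without mouse 1 labelled knockout they were 16 and 9 of 42, against 11.6% and 17.7%. In the limma fit without that mouse 4 collagens passed the adjusted p lower (Col5a2, Col5a3, Col16a1 and Col18a1) and 4 higher (Col11a1, Col12a1, Col25a1 and Col26a1). Of all 19106 tested genes, 502 and 1022 passed. Mouse 1 differed from mice 2 and 3 of its group in Esr1, the only one below the controls, and in summed epithelial markers (2163 against 12066 and 13169 TPM). What moved the counts was not tested.

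**Figure D2:**
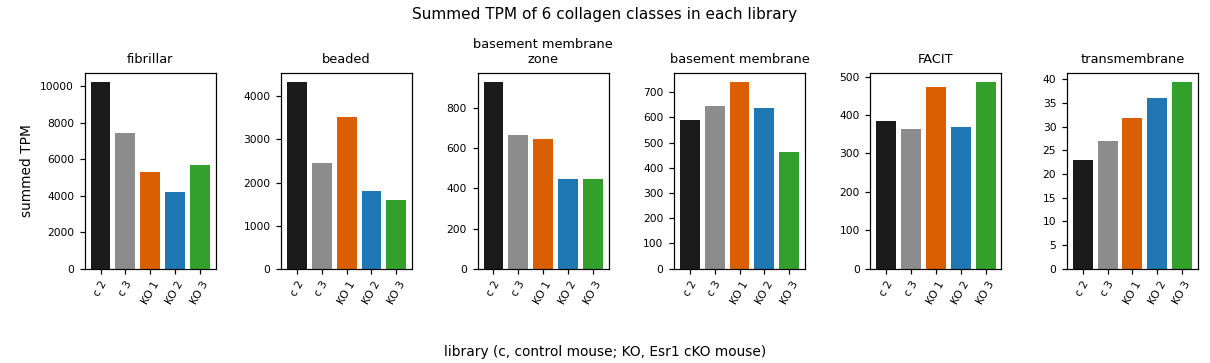
Bars give the summed TPM of each of 6 collagen classes in each library, each panel with its own linear axis from 0. The fibrillar sum was 10243 and 7418 TPM in the controls and 4196 to 5679 TPM in the libraries labelled knockout, while the type IV and FACIT sums overlapped between the groups.

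Fibrillar collagens made up most of the difference in the collagen total. They summed to 10243 and 7418 TPM in control mice 2 and 3 and to 5293, 4196 and 5679 TPM in mice 1, 2 and 3 labelled knockout. The ratio of the group means was 0.573, or 0.608 without Col1a1, and the median log2 fold change of the 11 genes was -0.72. The 3 chains that dominate interstitial fibrils all lay below both controls. Col1a1, the main chain of type I collagen, was at 3806 and 2723 TPM in controls and at 1748, 1389 and 1884 TPM in mice 1, 2 and 3 labelled knockout (log2 fold change -0.96, standard error 0.28, limma adjusted p 0.245). Col1a2, its partner chain, was at 2839 and 2052 TPM and at 1707, 1232 and 1604 TPM, and Col3a1, the chain of type III collagen of extensible tissues, at 2893 and 2212 TPM and at 1438, 1275 and 1886 TPM. Their log2 fold changes of -0.69 and -0.74 had adjusted p of 0.351 and 0.336 in limma. Mouse 3 was the highest library labelled knockout for Col1a1 and Col3a1, and mouse 1 for Col1a2.

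Type V collagen, which nucleates fibrils and limits their width, held the widest contrast of the fibrillar class. Col5a3, a chain of restricted expression (chr9:20770050-20815067, minus strand), was at 64.0 and 36.5 TPM in control mice 2 and 3 and at 9.51, 12.04 and 9.85 TPM in mice 1, 2 and 3 labelled knockout. The control mean of 50.3 ± 19.4 TPM (SD, n = 2) was 4.80 times the mean of 10.5 ± 1.37 TPM (SD, n = 3) in the other group, and the log2 fold change of -2.11 (standard error 0.27) had the smallest adjusted p of the family, 0.0858 in limma. The 3 libraries labelled knockout differed little from each other, and the controls by more. Col5a2 was at 224 and 159.5 TPM and at 152, 101 and 106 TPM (log2 fold change -0.68, limma adjusted p 0.327). Col5a1, the chain found in nearly every type V molecule, was at 383 and 199.9 TPM and at 204, 146 and 158 TPM, so that mouse 1 labelled knockout overlapped control mouse 3. The adjusted p of Col5a3 was 0.0207 with library weights, 0.0483 once a score of the epithelial markers entered the fit and 0.02 without mouse 1 labelled knockout, and over all alternatives it ran from 0.00618 to 0.642.

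Type XI collagen split between its chains. Col11a1, a fibril-nucleating chain best known from cartilage, was at 4.05 and 5.35 TPM in controls and at 8.92, 18.5 and 13.6 TPM in mice 1, 2 and 3 labelled knockout, the only fibrillar gene above both controls (log2 fold change 1.32, standard error 0.32, limma adjusted p 0.198). Col11a2, its partner, was at 4.01 and 4.24 TPM and at 2.07, 3.07 and 1.25 TPM. The other weakly expressed fibrillar genes, Col2a1 of cartilage collagen and Col24a1, were at 2.25 to 3.40 TPM in controls and 0.653 to 1.86 TPM in the libraries labelled knockout. Col27a1 overlapped, at 14.2 to 20.7 TPM over all libraries.

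**Figure D3:**
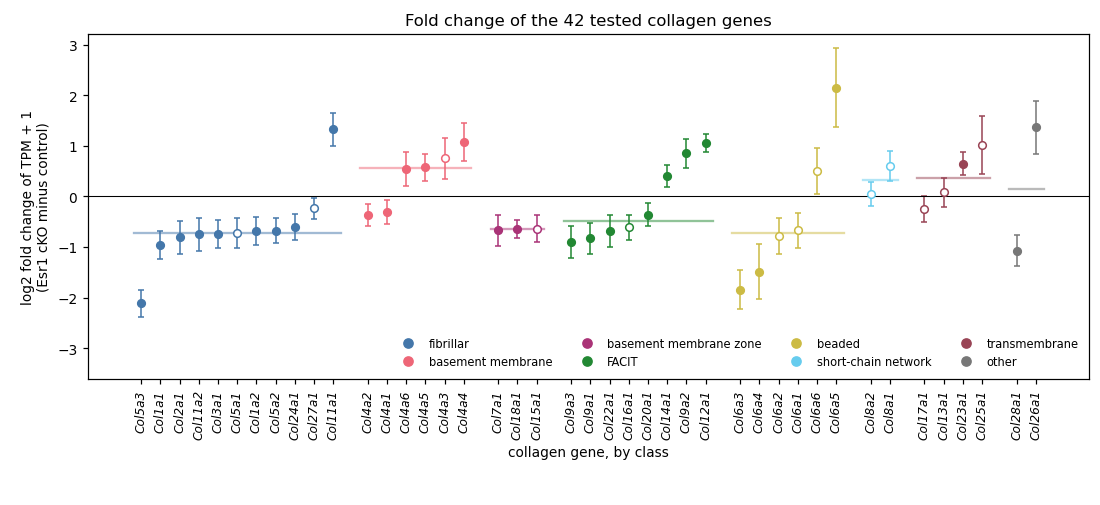
Points are log2 fold changes of TPM + 1 (libraries labelled knockout minus controls) for the 42 tested collagens, bars are standard errors from limma, filled points mark genes whose groups do not overlap, and the pale line of each class is its median. Col5a3 at -2.11 and Col6a5 at 2.15 are the extremes, and 10 of 11 fibrillar genes lie below 0.

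Beaded collagen, type VI, showed the widest spread within a class. In the classical molecule the chains of Col6a1, Col6a2 and Col6a3 combine, and Col6a4, Col6a5 and Col6a6 encode chains related to that of Col6a3. Col6a1 was at 2226 and 1401 TPM in control mice 2 and 3 and at 1579, 987 and 873 TPM in mice 1, 2 and 3 labelled knockout. Col6a2 was at 1237 and 707 TPM and at 800.4, 464 and 427 TPM. In both genes mouse 1 labelled knockout lay between the controls and the other two lay below them, and neither passed the test (limma adjusted p 0.423 and 0.389). Col6a3 (chr1:90765923-90843971, minus strand) was at 674 and 249.8 TPM in controls and at 127, 100.1 and 115 TPM in mice 1, 2 and 3 labelled knockout, which all lay below. The log2 fold change of -1.84 had a standard error of 0.39 and a limma adjusted p of 0.187, and it was -1.13 without control mouse 2 and -2.56 without control mouse 3.

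The chains related to Col6a3 went in different directions, although their genes neighbour each other on chromosome 9. From left to right lie Col6a6 (chr9:105687809-105828160), Col6a5 (chr9:105856078-105960643) and Col6a4 (chr9:105989454-106096783), all on the minus strand, 27917 and 28810 bases apart. Col6a5 was at 98.8 and 41.99 TPM in controls and at 913, 193 and 137 TPM in mice 1, 2 and 3 labelled knockout. All 3 lay above both controls, mouse 1 far above the other two. The log2 fold change of 2.15 was the highest of the family, with a standard error of 0.79 and a limma adjusted p of 0.332. It was 1.32 without mouse 1 labelled knockout and 1.54 and 2.76 without control mouse 3 and 2, and it was 3.27 and passed (limma adjusted p 0.0108) once the epithelial score entered the fit. Col6a6 was at 41.9 and 27.7 TPM in controls and at 92.1, 42.4 and 29.2 TPM, again highest in mouse 1, and the groups overlapped. Col6a4 was at 60.2 and 16.0 TPM in controls and at 7.09, 10.8 and 14.9 TPM, below both controls, with mouse 3 close to control mouse 3. Its log2 fold change of -1.49 (limma adjusted p 0.329) was -0.57 without control mouse 2 and -2.41 without control mouse 3.

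The chains related to Col6a3 are thought to be able to take its place beside Col6a1 and Col6a2, which RNA levels cannot show. In RNA the order of Col6a5 and Col6a3 was exchanged, though neither gene passed (limma adjusted p 0.332 and 0.187). The pair was chosen after the values were seen. As Col6a5 lay above and Col6a3 below both controls, their ratio had to separate the groups. Col6a5 over Col6a3 was 0.147 and 0.168 in the controls and 7.18, 1.93 and 1.19 in mice 1, 2 and 3 labelled knockout, so that Col6a3 was the higher of the pair in the controls and Col6a5 in every library labelled knockout. The ratio of Col6a3 to Col6a1 was 0.303 and 0.178 in controls and 0.0805, 0.101 and 0.132 in the other libraries. The ratio of Col6a1 to Col6a2 stayed between 1.80 and 2.13 in all 5 libraries. Ratios within a library do not depend on the share of TPM taken by other genes.

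**Figure D4:**
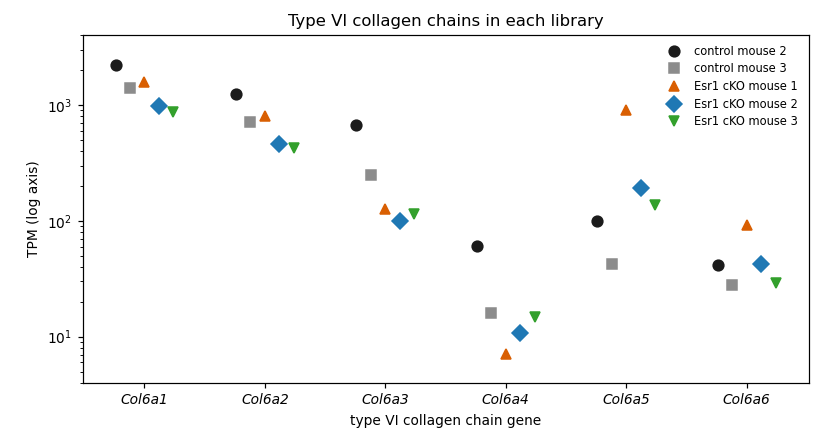
Points are the TPM (log axis) of the 6 type VI chain genes in each library. Col6a3 lies at 100.1 to 127 TPM in the libraries labelled knockout against 249.8 and 674 TPM in the controls, while Col6a5 lies at 137 to 913 TPM against 41.99 and 98.8 TPM.

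Type IV collagens of the basement membrane held a summed level that overlapped, at 590 and 644 TPM in controls and 741, 639 and 464 TPM in mice 1, 2 and 3 labelled knockout. The 2 widespread chains and the 4 chains of restricted expression differed in direction. Col4a1 was at 291 and 321 TPM in controls and at 277, 290.2 and 187 TPM, just below the lower control in mouse 2. Col4a2 was at 161 and 179 TPM and at 144, 151 and 104 TPM. Their adjusted p in limma was 0.555 and 0.456. Their ratio was 1.79 to 1.93 in all 5 libraries.

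The restricted type IV chains lie in pairs of genes with a common start region, and the 2 members of a pair had like orders of libraries. This was not particular to them. The widespread Col4a1 and Col4a2 are also transcribed away from each other, share 22 bases at their starts and had the same order of libraries. Col4a4 and Col4a3, whose starts are the 71 bases shown above apart on chromosome 1, were at 13.2 and 10.4 TPM and at 6.86 and 3.77 TPM in control mice 2 and 3. In mice 1, 2 and 3 labelled knockout Col4a4 was at 26.8, 40.4 and 15.7 TPM (log2 fold change 1.07, standard error 0.37, limma adjusted p 0.316) and Col4a3 at 10.6, 13.7 and 5.42 TPM, with mouse 2 highest in both and mouse 3 lowest. Col4a3 shares 563 exonic bases with an annotated transcript of the opposite strand, so part of its reads may belong there. Col4a5 and Col4a6, which start 1308 bases apart on the X chromosome, were at 60.4 and 60.5 TPM and at 57.7 and 69.6 TPM in controls. In the libraries labelled knockout Col4a5 was at 131, 70.6 and 79.6 TPM and Col4a6 at 151, 72.4 and 72.4 TPM, both highest in mouse 1 (limma adjusted p 0.402 and 0.495). The ratio of Col4a5 to Col4a6 was 0.870 to 1.10 and that of Col4a3 to Col4a4 0.339 to 0.520. Without mouse 1 labelled knockout the median log2 fold change of the 6 type IV genes was 0.25, against 0.56 with it.

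Of the 3 collagens of the basement membrane zone, none passed the test and 2, Col18a1 and Col7a1, lay below both controls. Col15a1, a multiplexin that links basement membranes to fibrils, was at 839 and 587 TPM in controls and at 587, 389 and 402 TPM in mice 1, 2 and 3 labelled knockout, with mouse 1 level with control mouse 3 (limma adjusted p 0.366). Col18a1, the other multiplexin and the source of endostatin, was at 87.6 and 75.4 TPM and at 57.4, 53.9 and 45.1 TPM, below both controls in all 3 (log2 fold change -0.64, standard error 0.18, limma adjusted p 0.233). Col7a1, the chain of anchoring fibrils, was at 4.89 and 4.10 TPM and at 3.41, 2.64 and 1.55 TPM.

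FACIT collagens differed in both directions. Col12a1, which binds fibrils in tissues under tension (chr9:79598991-79718831), was at 17.6 and 22.0 TPM in controls and at 43.6, 43.0 and 38.5 TPM in mice 1, 2 and 3 labelled knockout. The 3 libraries lay close together and above both controls, at 2.11 times the control mean (log2 fold change 1.05, standard error 0.18, limma adjusted p 0.130). The limma adjusted p was 0.0257 with library weights and 0.0276 without mouse 1 labelled knockout, fits in which 260 and 1022 of all genes passed higher. It was 0.275 without mouse 2 and 0.191 without mouse 3 labelled knockout. Col14a1, the most abundant FACIT gene, was at 237 and 238 TPM and at 330.2, 248 and 376 TPM, just above the controls in mouse 2. Col16a1 went the other way, at 106 and 77.5 TPM in controls and 77.8, 50.9 and 52.2 TPM, with mouse 1 overlapping control mouse 3. Col20a1 was at 10.4 and 8.74 TPM and at 8.06, 7.72 and 5.92 TPM.

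The chains of type IX collagen, a FACIT of cartilage, did not go together. Col9a2 was at 4.85 and 6.94 TPM in controls and at 8.78, 15.0 and 10.8 TPM in mice 1, 2 and 3 labelled knockout (log2 fold change 0.85, limma adjusted p 0.300). Col9a3 was at 4.70 and 5.30 TPM and at 3.15, 2.45 and 1.33 TPM, and shares 234 exonic bases with Tcfl5 on the opposite strand. Col9a1 was at 1.67 and 2.22 TPM and at 0.613, 0.991 and 0.400 TPM. It was the only member to pass the filter on low values, at least 1 TPM in at least 2 libraries, through the controls alone, so it had to be among the lower genes. The counts above include it, among the 19 tested members below both controls, the 8 of those under 5 TPM and the 17 lower at an unadjusted p under 0.05 in limma. Col22a1 was at 2.14 and 2.28 TPM and at 0.974, 1.59 and 0.568 TPM. Col19a1, at 0.271 to 0.577 TPM, did not pass the filter and was not tested.

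Transmembrane collagens are minor in this tissue, with a summed level of 23.0 and 26.9 TPM in controls and 31.9, 36.1 and 39.4 TPM in mice 1, 2 and 3 labelled knockout. Col23a1 was at 10.1 and 13.4 TPM and at 16.4, 17.5 and 23.2 TPM, above both controls in all 3 (log2 fold change 0.65, standard error 0.23, limma adjusted p 0.324). Col25a1, a collagen best known from neurons, was at 1.69 and 1.70 TPM in controls and at 1.36, 6.47 and 8.32 TPM. Col13a1 and Col17a1, the latter a hemidesmosome protein of epithelium, overlapped between the groups at 5.39 to 10.002 TPM and 2.57 to 4.19 TPM.

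Col26a1, a secreted collagen outside these classes, was at 2.95 and 3.26 TPM in controls and at 3.86, 16.2 and 13.1 TPM in mice 1, 2 and 3 labelled knockout (log2 fold change 1.36, standard error 0.52, limma adjusted p 0.344). Col25a1 and Col26a1 were both high in mice 2 and 3 labelled knockout, the libraries in which the epithelial markers summed to 12066 and 13169 TPM. In mouse 1 Col25a1 lay just below and Col26a1 just above the controls. With the epithelial score in the fit, log2 fold changes were 0.67 for Col26a1 and 0.25 for Col25a1, which was 1.02 without it and 1.63 without mouse 1 labelled knockout. Col28a1, a chain with the von Willebrand type domains of the beaded class, was at 3.85 and 2.39 TPM in controls and at 0.654, 1.03 and 1.14 TPM (log2 fold change -1.07, standard error 0.30, limma adjusted p 0.235). The short-chain network collagens overlapped. Col8a2 was at 20.0 to 32.0 TPM, Col8a1 at 2.45 to 6.02 TPM and the untested Col10a1, a chain of growth-plate cartilage, at 0.0548 to 1.41 TPM.

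Ratios between chains were compared within each library, most of them between chains that assemble together. The ratio of Col1a1 to Col1a2 was 1.34 and 1.33 in control mice 2 and 3 and 1.02, 1.13 and 1.17 in mice 1, 2 and 3 labelled knockout, below both controls in all 3. Type III collagen is made of Col3a1 chains alone, and its ratio to Col1a1 was 0.760 and 0.812 in controls and 0.822, 0.918 and 1.00 in the others, above both controls, though only just in mouse 1. The ratio of Col5a3 to Col5a1 was 0.167 and 0.183 in controls and 0.0466, 0.0824 and 0.0624 in the others. The ratio of Col5a1 to Col5a2 overlapped, at 1.25 to 1.71. No test was made of the ratios, which describe these 5 libraries, and those of Col6a5 to Col6a3, Col5a3 to Col5a1 and the paired type IV genes were chosen after the values were seen.

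**Figure D5:**
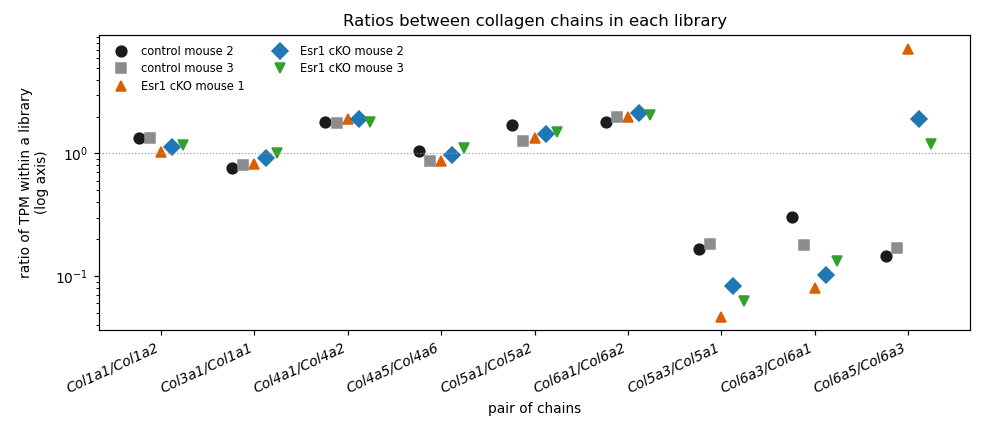
Points are ratios of TPM between 2 collagen chains within a library (log axis), and the dotted line marks equal levels. Col4a1/Col4a2 and Col6a1/Col6a2 lie at 1.79 to 2.13 in every library, while Col6a5/Col6a3 lies at 0.147 and 0.168 in the controls and at 1.19 to 7.18 in the libraries labelled knockout.

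The machinery that folds, cuts, cross-links, binds and degrades collagen was listed as 52 genes, all of which were tested. None passed an adjusted p of 0.05 in limma. At an unadjusted p under 0.05 in limma, 13 were lower and 1 higher (25% and 1.92%, against the 9.87% and 3.7% of all genes), and 17 lay below and 3 above both controls in all 3 libraries labelled knockout (32.7% and 5.77%, against 21.9% and 11.9% of all tested genes). Their median log2 fold change was -0.32. Of 22 genes of chain folding and modification, 6 were lower at that p and 0 higher. P4ha3, a subunit of the prolyl hydroxylase that stabilises the helix, was at 33.8 and 9.47 TPM in controls and at 1.14, 2.81 and 2.83 TPM (log2 fold change -2.60, standard error 0.53, limma adjusted p 0.168). P3h2, a prolyl 3-hydroxylase that acts on type IV collagen, was at 18.8 and 23.4 TPM and at 25.3, 44.5 and 28.9 TPM. Plod2 and Colgalt2, named after their values were seen, modify lysines of collagen. Plod2 was at 320.4 and 149 TPM and at 54.8, 105 and 84.1 TPM, and Colgalt2 at 25.3 and 10.5 TPM and at 4.96, 5.64 and 4.45 TPM, both below the controls in all 3 libraries.

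The smaller lists of the later steps are to be read against the same shares of all genes, 21.9% below and 11.9% above both controls. For these lists, as for the whole list, those shares depended on level. They were 12.9% below and 16.7% above among genes with a mean of at least 5 TPM, and 38.9% and 2.92% among tested genes under 5 TPM. Of 8 genes that process procollagen 2 lay below and 1 above both controls. Tll1, a protease of the tolloid family, was at 2.56 and 2.12 TPM in controls and at 5.60, 7.12 and 6.12 TPM (log2 fold change 1.12, standard error 0.24, limma adjusted p 0.187). The related Tll2 was at 2.03 and 2.97 TPM and at 1.07, 1.57 and 0.581 TPM. Of 5 cross-linking enzymes 2 lay below both controls, among them Loxl1 at 160.1 and 117 TPM and at 75.1, 78.3 and 91.6 TPM (limma adjusted p 0.215). Of 10 receptors and uptake genes 4 lay below and 0 above. Itga2, one of the collagen-binding integrin subunits, was at 9.90 and 12.1 TPM and at 3.72, 4.38 and 3.54 TPM (log2 fold change -1.29, standard error 0.22, limma adjusted p 0.131), while Ddr1, a collagen receptor kinase of epithelium, overlapped and was highest in mice 2 and 3 labelled knockout (47.3 to 126 TPM over all libraries). Of 7 breakdown genes 2 lay below both controls, and Mmp14, a membrane collagenase, was at 256 and 221 TPM and at 181, 145 and 166 TPM (limma adjusted p 0.293).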

How the data were processed

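Total RNA of sorted oviductal stromal cells was made into libraries with a low-input SMARTer kit, per the labels' protocols. The deposited values are TPM per gene in 5 columns, 1 per mouse, in which the authors scaled every library to the same total. STAR is named by the table, and mm10 is the build per the submitters' processing notes. The counter and annotation are not given in the sources used here. TPM keeps no depth, so no counting error can be given. The kit is not known to mark strand, and 13 of the 44 members share exonic bases with another annotated gene.

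The scale was log2(TPM + 1). limma 3.58.1, run under R 4.3.3 with eBayes and its trend option, took genotype as the only term, two-sided, over the 19292 genes with at least 1 TPM in at least 2 libraries. Adjustment followed Benjamini and Hochberg, with a threshold of 0.05. Fold changes on this scale understate those of low genes. In simulated data for this comparison, with 200 genes changed, the fit recovered 0% of log2 changes of 1 (18933 genes tested), 94% of changes of 2 (18905 genes) and 100% of changes of 3 (18967 genes), with 0, 13 and 13 unchanged genes called. These shares do not carry over to every gene of the real libraries. Col5a3 at -2.11, Col6a5 at 2.15 and P4ha3 at -2.60 did not pass (limma adjusted p 0.0858, 0.332 and 0.168). Each library is 1 mouse. Positions are from GENCODE M21 and promoters from RefSeq, both GRCm38, read with Python 3.11.15.

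Members and lists were chosen with earlier results of these data known. Named genes were the 3 most abundant members of each class, tested members at an unadjusted p under 0.05 and members of at least 5 TPM whose groups did not overlap, which gave 38. The other members are given to account for all 44. For the machinery, any gene past the threshold and the gene with the smallest p in each direction of each list was named. Protein sequences were not used here. Alternatives are given in the closing section.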

Additional observations from a re-analysis of the deposited data

How the results depend on the processing

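The count of 0 collagens with an adjusted p under 0.05 in limma held for both directions with another pseudocount (0.1), other filters and other scalings. It also held with eBayes without trend, robust eBayes and without mouse 2 or 3 labelled knockout. Few of all genes passed in those fits either, at most 5 lower and 2 higher (without Rpph1 and Rn45s). With that pseudocount, with a mean TPM of at least 5 and without mouse 2 labelled knockout, 0 of all genes passed in either direction. The count of collagens became 3 higher and 2 lower with library weights, where 260 and 396 of all genes passed. It was 1 higher (Col6a5) and 1 lower (Col5a3) with an epithelial score as a covariate, where 54 and 43 passed. Over the fits without 1 library each, both counts ranged from 0 to 4, with 4 higher and 4 lower without mouse 1 labelled knockout, where 1022 and 502 of all genes passed. The cause was not tested. Where 1 control was left, it was assumed to vary like the other libraries.

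The mouse number as a replicate block gave 6 higher and 8 lower collagens, where 1165 and 693 of all genes passed. The deviations of same-numbered mice from their group means had r = -0.0598 and -0.0719 for numbers 2 and 3. With 2 controls, the deviations of one are those of the other with the sign changed. The r values are therefore not separate checks, and they cannot show whether same-numbered mice were paired. The block rests on mice 2 and 3, since mouse 1 has no partner.

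The median log2 fold change of the tested collagens, -0.49, was -0.31 with a mean TPM of at least 5 and -0.29 with the epithelial covariate, and -0.52 to -0.34 without 1 library each. Collagens at an unadjusted p under 0.05, 17 lower in the fit reported, numbered 9 with a mean TPM of at least 5 (5.92% of all genes), 11 with quantile normalization (7.18%) or median-of-ratios scaling (8.9%), 8 with the epithelial covariate (8.01%) and 2 to 16 without 1 library each. Of all 44 collagens, those whose groups did not overlap numbered 20 to 28 lower and 10 to 14 higher without 1 library each, where 24.6% to 31.3% and 13.5% to 34.8% of all tested genes did, an alternative added after the values were seen. Without mouse 1 labelled knockout 11 were higher, a share below the 34.8% of all tested genes. The FACIT median of -0.49 was 0.40 with a mean TPM of at least 5, and that of the other collagens, 0.15, was -0.029 with a pseudocount of 0.1, -0.26 with the epithelial covariate and -0.048 to 0.48 without 1 library each (lowest without mouse 2 labelled knockout). Col8a2 (0.05) was -0.042 with quantile normalization, -0.010 without Rpph1 and Rn45s, -0.10 with library weights and -0.16 with the replicate block, and ranged from -0.16 to 0.17 without 1 library each. Col13a1 (0.08) was -0.086 with the replicate block and -0.086 to 0.31 without 1 library each. Of 581 alternative values of named collagens, 545 kept direction and side of the threshold, 29 passed it newly and 7 reversed. No collagen passed in the fit reported, so none had a call to lose, and keeping its side meant staying uncalled.

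On the log2 scale, the ratio of summed TPM without the most abundant member was 0.22 for type IV (-0.01 with it), -0.13 for FACIT (0.24), 0.74 for short-chain network (0.19), 0.35 for transmembrane (0.52) and -1.73 for the other collagens (0.95). Without 1 library each it ranged from -1.02 to -0.55 for fibrillar, -0.16 to 0.16 for type IV, -0.86 to -0.37 for basement membrane zone, 0.17 to 0.36 for FACIT, -0.998 to -0.085 for beaded, -0.023 to 0.32 for short-chain network, 0.42 to 0.64 for transmembrane and 0.59 to 1.34 for the other collagens.

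Reads behind low values are not known, so members under about 1 TPM cannot be ordered.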
